A study of Arabidopsis thaliana with 6 samples.

Results

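The genes described here encode the nuclear proteins of the photosystems, their light-harvesting antenna and the small subunit of Rubisco in developing seeds of Arabidopsis thaliana. They are the loci outside the plastid and mitochondrial genomes whose annotation in the deposited table names a photosystem, a light-harvesting or chlorophyll a/b protein, or ribulose bisphosphate carboxylase. The table has 75 such rows for 70 genes, out of 34001 rows for 33471 loci. Of these genes 13 belong to photosystem I, 27 to photosystem II, 26 to the antenna and 4 to Rubisco. A gene whose annotation lacks these words, such as PSBO-1, is not among them.

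RNA was sequenced from seeds of the lines ar21 and i4g1 and of wild type (WT), all in strain Columbia-0, with 2 biological replicates in each of the 3 lines and pooled seeds in each sample. Plants grew in 16 hours of light at 22 °C and 8 hours of dark at 17 °C, and the seeds came from tagged siliques taken 13 days after flowering. From knowledge of the study and not from the labels, i4g1 is a mutant of eIFiso4G1, which helps recruit mRNAs to ribosomes, and ar21 carries a mutation in the same gene. The labels do not describe either allele. As a check of the lines, eIFiso4G1 (AT5G57870) had 116 and 123 normalised counts (counts divided by a size factor of each library) in ar21 and 24.5 and 45.6 in i4g1, against 368 and 454 in WT, so that the mutant libraries lay below WT without overlap.

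Photosystem II splits water and photosystem I reduces ferredoxin, and electrons pass between them through the cytochrome b6f complex and plastocyanin. Each photosystem is built from core proteins, many of them plastid-encoded, and from nuclear-encoded subunits and chlorophyll-binding antenna proteins. Rubisco joins a plastid-encoded large subunit with small subunits from a nuclear family (RBCS). Embryos of Arabidopsis are green during seed filling, and their photosynthesis supplies oxygen, reductant and recaptured carbon for oil synthesis.

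Promoters of 5 members are shown because these genes span the range of changes described below and hold elements known from light-regulated genes. PSAH2 and PSBQ-1 were among the genes of each photosystem with the largest rise in i4g1, LHCB4.1 is an antenna gene that rose, RBCS2B is a minor small subunit gene, and ELIP1 fell in ar21. All 5 were picked for display after their values were seen. Each sequence is the 250 bases before the annotated gene start in the TAIR10.1 genome, 5′ to 3′ on the gene's strand. Capitals mark matches on either strand to 3 motifs. These are the G-box core CACGTG, the I-box core GATAAG, and CCACGT. The last of these overlaps with the G-box core wherever a C stands in front of that core.
PSAH2, chr1:19454548-19454797, + strand: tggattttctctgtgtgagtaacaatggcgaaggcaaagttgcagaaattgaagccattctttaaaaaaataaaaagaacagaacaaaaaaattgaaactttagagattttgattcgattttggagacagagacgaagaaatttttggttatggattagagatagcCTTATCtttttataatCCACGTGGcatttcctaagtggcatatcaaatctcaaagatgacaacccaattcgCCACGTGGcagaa
PSBQ-1, chr4:11334102-11334351, + strand: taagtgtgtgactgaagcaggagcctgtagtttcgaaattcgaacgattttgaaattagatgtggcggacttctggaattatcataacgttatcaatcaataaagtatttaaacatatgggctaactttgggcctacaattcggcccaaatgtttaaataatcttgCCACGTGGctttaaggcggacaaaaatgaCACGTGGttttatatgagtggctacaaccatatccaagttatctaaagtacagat
LHCB4.1, chr5:208616-208865, + strand: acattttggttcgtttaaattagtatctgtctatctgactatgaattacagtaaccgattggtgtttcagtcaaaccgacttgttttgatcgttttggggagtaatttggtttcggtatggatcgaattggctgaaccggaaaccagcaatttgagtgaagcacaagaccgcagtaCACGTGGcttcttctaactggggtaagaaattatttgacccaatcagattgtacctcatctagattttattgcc
RBCS2B, chr5:15382072-15382321, - strand: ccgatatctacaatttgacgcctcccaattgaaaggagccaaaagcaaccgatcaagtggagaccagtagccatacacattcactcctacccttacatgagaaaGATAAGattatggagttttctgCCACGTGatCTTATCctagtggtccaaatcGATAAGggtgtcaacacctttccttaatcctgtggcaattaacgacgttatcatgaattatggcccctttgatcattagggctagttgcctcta
ELIP1, chr3:8085670-8085919, - strand: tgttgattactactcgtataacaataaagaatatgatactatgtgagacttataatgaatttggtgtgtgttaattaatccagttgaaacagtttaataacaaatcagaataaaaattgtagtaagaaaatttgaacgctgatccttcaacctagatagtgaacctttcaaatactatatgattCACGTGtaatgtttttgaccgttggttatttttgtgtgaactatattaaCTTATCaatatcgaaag

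PSAH2 holds 2 matches to CACGTG, 12 and 67 bases before the gene start, and PSBQ-1 holds 2, at 55 and 83 bases. RBCS2B has 1 match to CACGTG with a GATAAG match on either side of it, and 3 GATAAG matches in all. ELIP1 also holds CACGTG, at 66 bases. Over the 69 member genes with an annotated promoter window, 23.2% of promoters held CACGTG on either strand, against 6.49% of the 27443 promoters of all protein-coding genes. GATAAG was present in 23.2% of the members' promoters and 12.3% of all, and CCACGT in 23.2% and 8.23%. Among tested members, 8 of 13 with CACGTG and 28 of 44 without it were called higher in ar21, and 10 of 13 with it and 35 of 44 without it in i4g1. A match is a description of the letters in this window, and no match says only that the letters are not in it.

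The RBCS genes are shown by a stretch of 60 bases of their coding sequence, since their similarity bears on how reads are told apart. It was picked as the stretch with the most positions at which RBCS1A differs from all 3 tandem copies. It differs from RBCS1A at 14 bases in RBCS1B, 13 in RBCS2B and 12 in RBCS3B. The coding sequences as a whole are more alike, as given below. The stretch runs from base 20 to base 79 of each coding sequence in TAIR10.1, within the part that encodes the chloroplast transit peptide. Capitals in the lower 3 mark bases that differ from RBCS1A.
RBCS1A: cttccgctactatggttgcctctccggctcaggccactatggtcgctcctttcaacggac
RBCS1B: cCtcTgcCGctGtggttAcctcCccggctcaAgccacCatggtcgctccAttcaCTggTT
RBCS2B: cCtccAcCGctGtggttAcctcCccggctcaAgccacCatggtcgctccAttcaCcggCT
RBCS3B: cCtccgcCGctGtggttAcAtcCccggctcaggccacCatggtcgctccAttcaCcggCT

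RBCS1A (AT1G67090) lies alone on chromosome 1 from 25048158 to 25049667. RBCS3B (AT5G38410), RBCS2B (AT5G38420) and RBCS1B (AT5G38430) lie side by side on chromosome 5 between 15376988 and 15385320, all on the - strand. Their coding sequences were 97.2% identical between RBCS1B and RBCS2B, 94.1% between RBCS1B and RBCS3B and 94.3% between RBCS2B and RBCS3B, and each was 87.7% to 90.1% identical to RBCS1A. Of the 50-base windows along the annotated transcripts, 1.48% in RBCS1A also occurred in another gene, against 14.0% in RBCS1B, 21.4% in RBCS2B and 18.3% in RBCS3B. Values of the tandem copies are therefore less certain than those of RBCS1A.

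The libraries held 3418773 to 8435759 reads, nuclear 18S rRNA included, and their composition differed between the lines. Without 18S they held 3070006 and 1344947 reads in WT, against 3556647 to 8106414 in the mutant libraries. In WT 2, 1 read stood for 2.80 normalised counts, so low WT values rest on few reads. The nuclear 18S rRNA locus took 30.0% and 19.8% of the counts in ar21 and 11.5% and 3.90% in i4g1, against 40.8% and 60.7% in WT. Transcripts of the plastid genome took 0.821% and 0.526% of the remaining counts in ar21 and 0.384% and 0.122% in i4g1, against 2.33% and 3.09% in WT. Those of the mitochondrial genome took 1.79% and 0.947% in ar21 and 0.609% and 0.178% in i4g1, against 4.64% and 5.73% in WT. The lower share in the mutant libraries was thus not particular to the plastid genome. The nuclear members moved the other way from these shares. They made up 1.71% and 1.54% of the nuclear counts outside the 18S locus in ar21 and 1.65% and 1.72% in i4g1, against 0.771% and 0.877% in WT. Counting error was small in the 5 libraries used as whole reads. There the exact (Clopper-Pearson) 95% interval of the members' share reached at most 0.0165 percentage points to either side. The part of library composition in the differences below was not tested. Scaling to the nuclear total without the 18S locus left 37 members called higher in ar21 and 41 in i4g1.

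**Figure D1:**
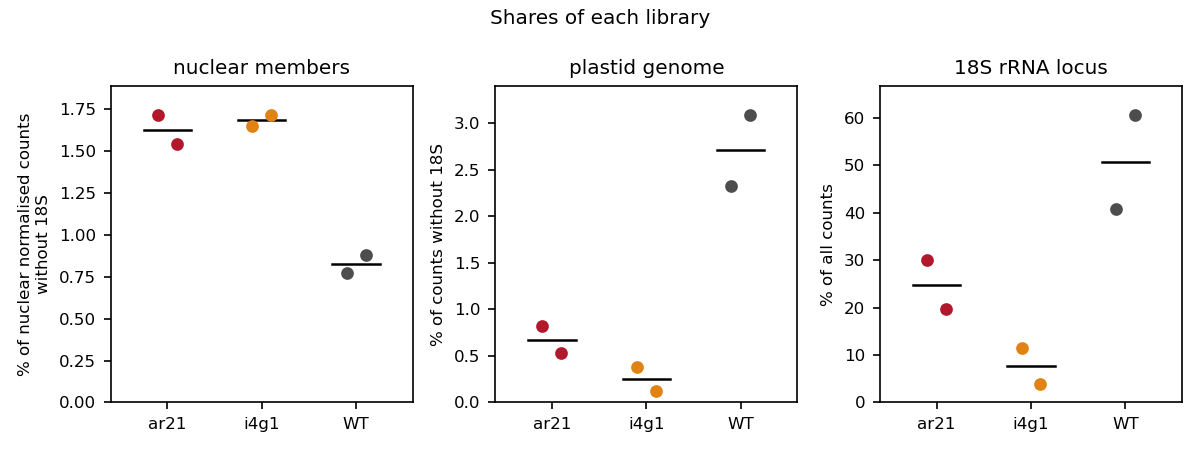
Share of each library taken by the nuclear members (left, percent of nuclear counts without 18S), by the plastid genome (middle, percent of counts without 18S) and by the 18S rRNA locus (right, percent of all counts). Points are libraries and bars are means of 2. The members' share is higher in all 4 mutant libraries than in both WT libraries, and the plastid and 18S shares are lower.

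Most of the measured member genes stood higher in both mutant lines than in WT. Of the 75 rows, 58 (each a different gene) had a mean of at least 10 normalised counts over the 6 libraries and were tested with limma. In ar21 against WT, 37 of 58 rose, 1 fell and 20 did not pass at an adjusted p of 0.05, where 8.76% of all 15591 tested loci rose and 6.03% fell. In i4g1 against WT, 46 rose, 1 fell and 11 did not pass, where 12.5% of all tested loci rose and 9.86% fell. That split of all loci was 1952 higher and 1537 lower, and it turned to 1439 higher and 1825 lower with scaling to the nuclear total. The median log2 fold change of the members was 0.91 in ar21 and 1.00 in i4g1, while over all tested loci it was 0.01 in each. Both comparisons use the same WT libraries. The 37 genes that rose in ar21 also rose in i4g1, and 9 more rose in i4g1 alone, although ar21 and i4g1 differed from each other by test only in 2 members. Both ar21 libraries stood above both WT libraries in 48 of 58 members and below them in 5, against 30.4% and 28.5% of all tested loci. For i4g1 the counts were 49 and 3, against 31.0% and 29.2% of all tested loci. In 2 tested members the mean in WT was under 10. AT5G27390, a PsbP-family gene, passed the filter through both mutant lines, so the filter favoured its place among the 48 and the 49 above WT. It was called in neither line. RBCS2B, whose mean in ar21 was also under 10, passed through i4g1 alone, so that its higher level in i4g1 was bound to appear. RBCS2B is counted among the 46 called and the 49 above WT but gives neither count support. Both genes also enter the medians. In whole seeds, more cells of a type and more RNA per cell cannot be told apart.

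**Figure D2:**
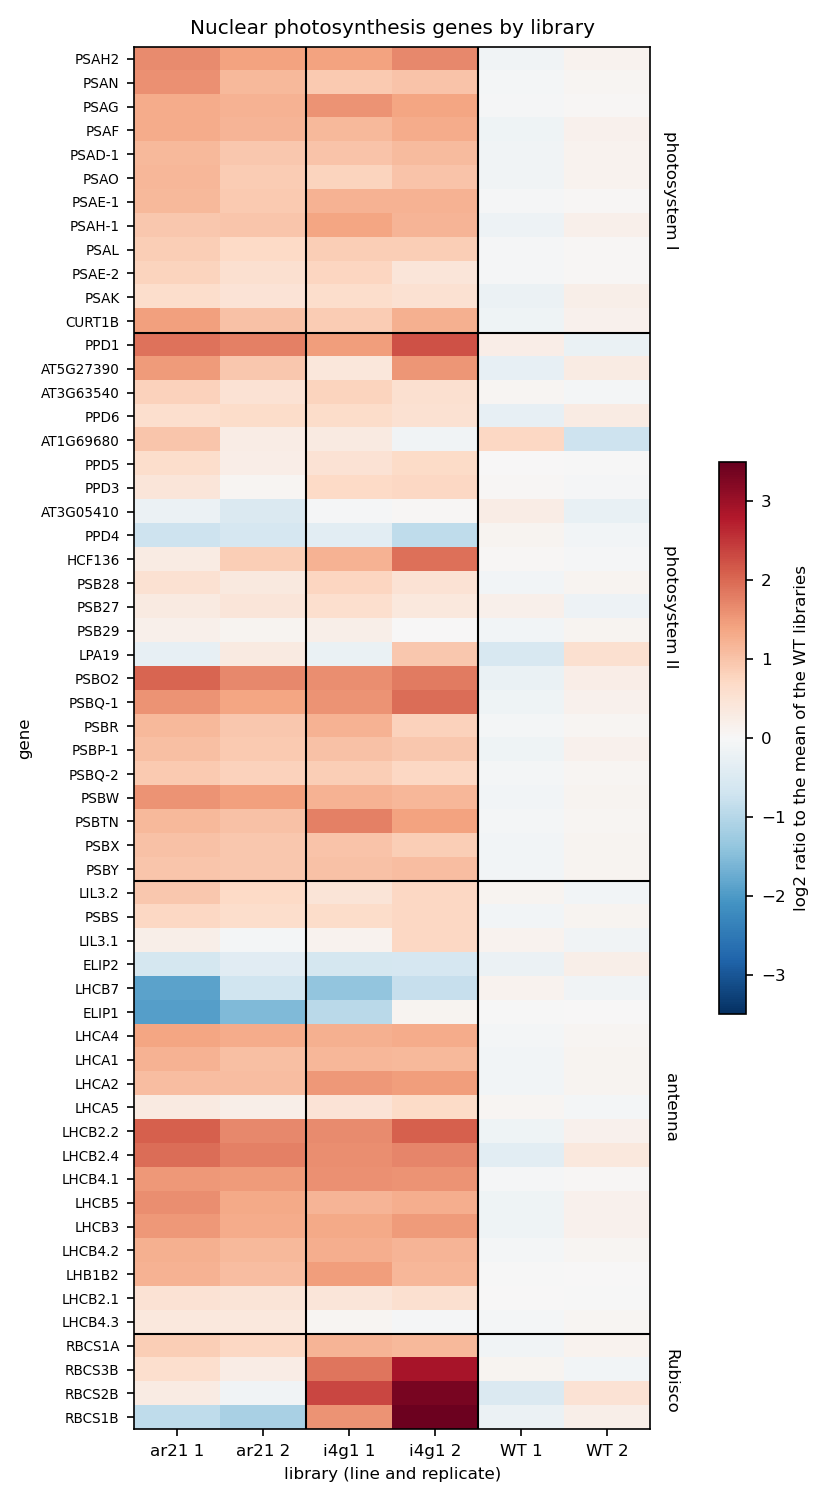
Log2 ratio of each tested member (rows, by gene group) to the mean of the WT libraries, in the 6 libraries (columns), on normalised counts plus 1. Photosystem I, the oxygen-evolving and small membrane subunits of photosystem II and most antenna genes are red (higher) in all 4 mutant libraries, while RBCS1B, RBCS2B and RBCS3B are darkest red in i4g1 2 and ELIP1 is blue (lower) in both ar21 libraries.

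All 12 tested photosystem I genes rose in ar21 and all 12 in i4g1. Their log2 fold changes ran from 0.55 to 1.53 in ar21, with a median of 1.03, and from 0.57 to 1.55 in i4g1, with a median of 1.05. No photosystem I gene was called in ar21 against i4g1 by limma, edgeR or DESeq2, where limma's unadjusted p was under 0.05 for 1 higher and 1 lower gene. The 12 calls fell to 10 without ar21 1 in ar21 and to 10 without i4g1 1 in i4g1.

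PSAG (AT1G55670) encodes a peripheral membrane subunit next to the antenna and had the highest level per kilobase of its group. It had 1979 and 1884 normalised counts in ar21 and 2398 and 2096 in i4g1, against 785 and 832 in WT. The mutant libraries all stood well above WT, with a log2 fold change of 1.26 ± 0.12 (SE) in ar21 (limma adjusted p = 7.05e-05) and 1.47 ± 0.12 in i4g1 (adjusted p = 2.66e-05). PSAH2 (AT1G52230, chromosome 1, 19454798 to 19455668, + strand), one of the gene pair for subunit H, where light-harvesting complex II can dock, had the largest change of the group. It had 254 and 212 normalised counts in ar21 and 214 and 259 in i4g1, against 73.1 and 86.8 in WT. The lines did not overlap with WT, and the log2 fold change was 1.53 ± 0.16 in ar21 (limma adjusted p = 0.000151) and 1.55 ± 0.16 in i4g1 (adjusted p = 0.000104).

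PSAN (AT5G64040) encodes the lumenal subunit that helps plastocyanin dock. It had 817 and 599 normalised counts in ar21 and 516 and 542 in i4g1, against 260 and 283 in WT. Both ar21 libraries were above both i4g1 libraries, but the difference between the mutant lines did not pass (log2 difference 0.40 ± 0.15, limma adjusted p = 0.425). PSAL (AT4G12800), another subunit at the docking site, and PSAO (AT1G08380), which takes part in state transitions, rose with log2 fold changes of 0.77 and 1.02 in ar21 and 0.86 and 0.88 in i4g1. PSAK, a subunit on the antenna side, changed least, with 581 and 529 normalised counts in ar21 and 581 and 544 in i4g1, against 328 and 437 in WT. Its calls were lost without WT 1 (log2 fold change 0.34 in ar21 and 0.36 in i4g1, limma adjusted p = 0.131 and 0.0921), in ar21 also without ar21 1 (0.217) or ar21 2 (0.0926) and in i4g1 without i4g1 1 (0.0754). CURT1B, which the table annotates as a photosystem I subunit and which is known to bend thylakoid margins, rose by 1.23 in ar21 and 1.06 in i4g1 on the log2 scale.

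In photosystem II the members were counted by the role of their proteins. The 5 tested genes of the oxygen-evolving complex and the 4 of its small membrane subunits rose in both lines, under every setting tried. Of 9 tested PsbP-family genes outside the core complex, 2 rose in ar21 and 4 in i4g1. DESeq2 gave PPD1, which is among them, no adjusted p in ar21, so it could not be called there by DESeq2. Of 5 assembly and repair factors, 0 were called in ar21 by limma, edgeR or DESeq2 (2 had an unadjusted p under 0.05 in limma, both higher) and 3 rose in i4g1. The ar21 count of the PsbP-family genes was 0 without ar21 1 and 1 without ar21 2 or WT 2. The i4g1 count was 1 without i4g1 1 or WT 2, and 2 without i4g1 2, ar21 1 or ar21 2. With edgeR 0 rose in ar21 and 2 in i4g1, and with DESeq2 0 rose in either line (1 in each was higher at an unadjusted p under 0.05). For the assembly factors the ar21 count was 1 without WT 1, i4g1 1 or i4g1 2, and the i4g1 count was 1 without i4g1 1. Leaving out WT 2, ar21 1 or ar21 2 left 2 of the 3 in i4g1.

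PSBO2 (AT3G50820) encodes one form of the PsbO protein that stabilises the manganese cluster. It had 219 and 169.8 normalised counts in ar21 and 166 and 189 in i4g1, against 45.1 and 61.6 in WT. All mutant libraries were above WT, with a log2 fold change of 1.85 ± 0.19 in ar21 (limma adjusted p = 0.000129) and 1.73 ± 0.19 in i4g1 (adjusted p = 0.000139). The table lists PSBO2 in 3 rows, of which the other 2 are at 0 in every library. PSBQ-1 (AT4G21280, chromosome 4, 11334352 to 11335815, + strand), one of the gene pair for the lumenal PsbQ protein, had 224 and 197 in ar21 and 224 and 295 in i4g1, against 67.0 and 84.0 in WT. Its log2 fold change was 1.47 ± 0.18 in ar21 (limma adjusted p = 0.000313) and 1.76 ± 0.18 in i4g1 (7.67e-05), and neither line overlapped with WT.

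PSBQ-2 (AT4G05180), the more abundant copy, had 2028 and 1880 normalised counts in ar21 and 1952 and 1757 in i4g1, against 1009 and 1126 in WT. PSBR (AT1G79040), which encodes a small protein that helps bind the oxygen-evolving proteins, had the highest level per kilobase in photosystem II. It had 2196 and 1923 normalised counts in ar21 and 2284 and 1747 in i4g1, against 949.6 and 1033 in WT. PSBQ-2 rose by 0.87 in ar21 and 0.80 in i4g1 on the log2 scale and PSBR by 1.05 and 1.01, each with the mutant libraries clear of WT. Among the small membrane subunits, PSBTN (AT3G21055) had 1235 and 1144 normalised counts in ar21 and 1892 and 1487 in i4g1, against 530.3 and 591 in WT. The lines stood clear of WT, and the log2 fold change was 1.09 in ar21 and 1.58 in i4g1. PSBW, PSBX and PSBY rose by 1.5, 0.99 and 0.95 in ar21 and by 1.19, 0.94 and 1.06 in i4g1 on the log2 scale.

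PPD1 (AT4G15510), a PsbP-domain protein known to assist photosystem I assembly, had 40.2 and 36.6 normalised counts in ar21 and 29.7 and 51.2 in i4g1, against 12.2 and 8.40 in WT. The lines stood above WT, with a log2 fold change of 1.82 ± 0.345 in ar21 (limma adjusted p = 0.00468) and 1.85 ± 0.345 in i4g1 (adjusted p = 0.00288). The ar21 call was lost without ar21 1 (limma adjusted p = 0.0748). The other PsbP-family genes that rose were AT3G63540 in both lines and PPD3 and PPD5 in i4g1. In i4g1 the log2 fold changes were 0.67, 0.71 and 0.59. The PPD5 call was lost without any 1 of the 6 libraries, and that of PPD3 without any library but WT 1. The AT3G63540 call was lost without WT 2 in both lines, without either ar21 library in ar21 and without i4g1 1 in i4g1. PPD4 had 61.3 and 68.1 normalised counts in ar21 and 79.5 and 54.7 in i4g1, against 109.7 and 95.2 in WT. Its mutant libraries were below WT, but it did not pass (log2 fold change -0.65 and -0.62, limma adjusted p = 0.0598 in ar21 and 0.0539 in i4g1). Without i4g1 1 it was called lower in both lines (0.0428 and 0.0301), and without i4g1 2 in ar21 (0.0379).

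HCF136, an assembly factor of the photosystem II reaction centre, had 42.2 and 62.95 normalised counts in ar21 and 82.2 and 134 in i4g1, against 35.4 and 33.6 in WT. It rose in i4g1 (log2 fold change 1.58 ± 0.27, limma adjusted p = 0.00173) and did not pass in ar21 (0.57 ± 0.27, adjusted p = 0.184). PSB27 and PSB28, factors that bind photosystem II during assembly and repair, rose in i4g1 by 0.49 and 0.64 on the log2 scale and had log2 fold changes of 0.37 and 0.44 in ar21 (limma adjusted p = 0.106 and 0.0535). The i4g1 call of PSB27 was lost without WT 2 (log2 fold change 0.31, limma adjusted p = 0.175), i4g1 1 (0.172), ar21 1 (0.0543) or ar21 2 (0.0553), and that of PSB28 without i4g1 1 (0.058). PSB29, known as THF1, had 746 to 919 normalised counts across the 6 libraries and did not pass in either line. None of these genes was named by the rule set for naming, and they were chosen after their values were seen.

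**Figure D3:**
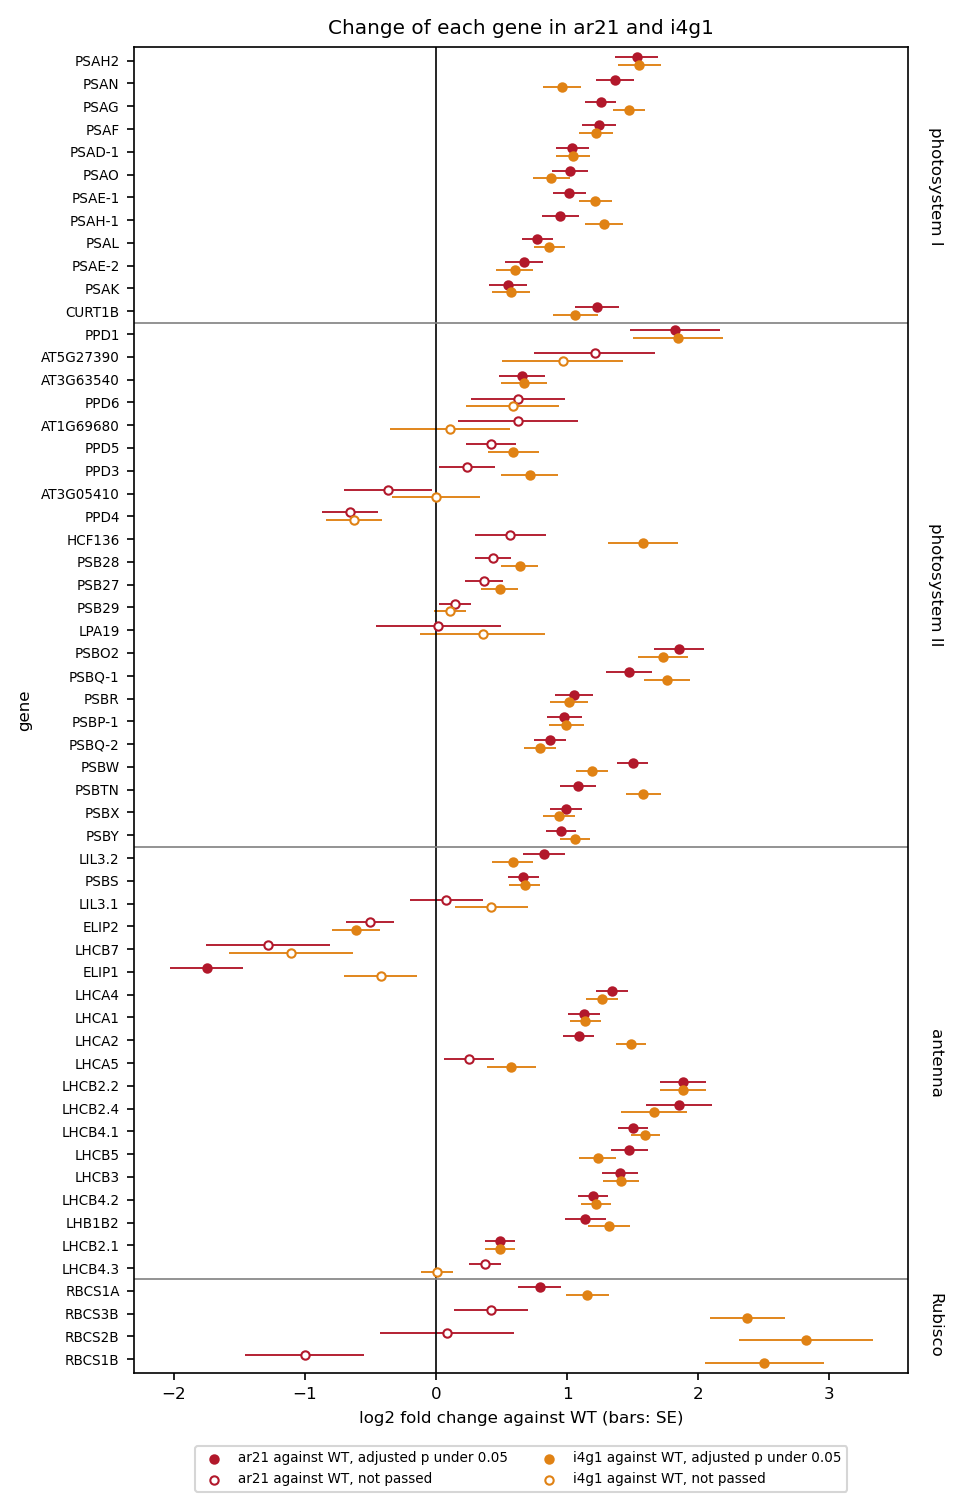
Log2 fold change of each tested member against WT in ar21 and i4g1, with bars for the SE from limma. Filled points passed an adjusted p of 0.05. Points of the photosystem I and oxygen-evolving genes lie between 0.55 and 1.85, while the Rubisco points of i4g1 reach 2.82 and the ELIP1 point of ar21 is at -1.75. The point at 2.82 is RBCS2B. That gene passed the filter through i4g1 alone, so its rise was bound to appear and its filled point gives no support.

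Of the 9 tested genes of the photosystem II antenna, 8 rose in ar21 and 8 in i4g1, with median log2 fold changes of 1.41 and 1.32. LHB1B2 (AT2G34420), one of the LHCB1 genes of the main light-harvesting trimer, had the highest level per kilobase of the antenna. It had 8166 and 7379 normalised counts in ar21 and 9793 and 7909 in i4g1, against 3462 and 3584 in WT. All mutant libraries were more than 2-fold above the WT values, with a log2 fold change of 1.14 ± 0.16 in ar21 (limma adjusted p = 0.000805) and 1.32 ± 0.16 in i4g1 (adjusted p = 0.000208). The other LHCB1 genes CAB1, CAB3 and LHB1B1 were listed at 0 in every library, and 17.3% of the 50-base windows of LHB1B2 also occur in LHB1B1. The value of LHB1B2 is therefore uncertain as that of a single gene.

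LHCB2.2 (AT2G05070), another trimer gene, had the largest rise of the antenna in both lines. It had 673 and 514 normalised counts in ar21 and 505 and 686 in i4g1, against 142.6 and 176 in WT. The log2 fold change was 1.88 ± 0.18 in ar21 (limma adjusted p = 6.02e-05) and 1.88 ± 0.18 in i4g1 (5.41e-05), and WT was clearly lowest. LHCB2.1, a paralog, rose by 0.49 in each line on the log2 scale, a call lost in ar21 without ar21 1 (limma adjusted p = 0.158), ar21 2 (0.0898) or WT 2 (0.0508). Of their windows, 28.2% in LHCB2.2 and 22.7% in LHCB2.1 occur in another gene. LHCB2.4 (AT3G27690), which shares no window, had 94.4 and 82.7 normalised counts in ar21 and 75.2 and 79.8 in i4g1, against 18.3 and 30.8 in WT. It rose by 1.85 in ar21 and 1.66 in i4g1 on the log2 scale.

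The minor antenna proteins link the trimers to the core. LHCB5 (AT4G10340) had 3089 and 2530 normalised counts in ar21 and 2306 and 2417 in i4g1, against 901 and 1120.1 in WT. The log2 fold change was 1.48 ± 0.14 in ar21 and 1.23 ± 0.14 in i4g1, and neither line overlapped with WT. LHCB4.1 and LHCB4.2 rose by 1.5 and 1.2 in ar21 and by 1.60 and 1.22 in i4g1 on the log2 scale. LHCB4.3, the other LHCB4 copy, also called LHCB8, did not pass. It had 433 and 436 normalised counts in ar21 and 352 and 323 in i4g1, against 322 and 350.0 in WT, and its log2 fold change was 0.37 ± 0.12 in ar21 (limma adjusted p = 0.0583) and 0.01 ± 0.12 in i4g1 (0.974). In ar21 it passed with the filter at a mean of 50 (0.0472).

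In the photosystem I antenna 3 of 4 tested genes rose in ar21 and 4 in i4g1. LHCA4 (AT3G47470) had 2985 and 2782 normalised counts in ar21 and 2665 and 2792 in i4g1, against 1080 and 1193 in WT. Every mutant library was more than 2-fold above WT. LHCA1, LHCA2 and LHCA4 rose by 1.13, 1.09 and 1.34 in ar21 and by 1.14, 1.49 and 1.26 in i4g1 on the log2 scale. LHCA5, a minor form that takes part in linking photosystem I to the NDH complex, had log2 fold changes of 0.25 in ar21 (limma adjusted p = 0.407) and 0.57 in i4g1 (0.0465). That i4g1 call was lost without any 1 of the 6 libraries. LHCA6, also of the NDH link, was below the filter, with 1 and 0.732 normalised counts in ar21 and 2.62 and 8.24 in i4g1, and was listed at 0 in both WT libraries.

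Of 6 tested antenna-like genes 2 rose and 1 fell in each line, and the gene that fell differed. ELIP1 (AT3G22840, chromosome 3, 8084405 to 8085669, - strand), an early light-induced protein that binds pigments under light stress, fell in ar21. It had 41.2 and 54.2 normalised counts in ar21 and 83.0 and 174 in i4g1, against 159.7 and 162 in WT. Both ar21 libraries were lowest, while the i4g1 libraries lay on either side of WT. The log2 fold change was -1.75 ± 0.28 in ar21 (limma adjusted p = 0.00192) and -0.42 ± 0.28 in i4g1 (0.31). The difference between ar21 and i4g1 did not pass (-1.33 ± 0.28, limma adjusted p = 0.0964), but it passed without i4g1 1 (0.00147), and without i4g1 2 ELIP1 was called lower in i4g1 against WT (0.0219).

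ELIP2 (AT4G14690), its paralog, had 87.4 and 102 normalised counts in ar21 and 86.5 and 88.5 in i4g1, against 117 and 154 in WT. All mutant libraries were below WT, and ELIP2 was called lower in i4g1 (log2 fold change -0.61 ± 0.18, limma adjusted p = 0.0307) but did not pass in ar21 (-0.51 ± 0.18, 0.0825), where it passed without WT 1 (0.0367). That i4g1 result held without WT 1 and was lost when any other library was left out (limma adjusted p from 0.0528 to 0.16). PSBS, which senses lumen acidity for photoprotection, rose by 0.67 in ar21 and 0.68 in i4g1 on the log2 scale, and LIL3.2, a light-harvesting-like protein of chlorophyll synthesis, by 0.82 and 0.59. Without ar21 1 neither passed in ar21 (limma adjusted p = 0.0698 for PSBS and 0.0974 for LIL3.2), and the i4g1 call of LIL3.2 was lost without WT 2 (0.0811) or i4g1 2 (0.134). LHCB7 had 6.03 and 14.6 normalised counts in ar21 and 8.74 and 13.5 in i4g1, against 26.8 and 22.4 in WT, and did not pass (limma adjusted p = 0.0891 and 0.115).

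Of the Rubisco small subunit genes, RBCS1A rose in both lines and RBCS1B and RBCS3B in i4g1, while RBCS2B, which passed the filter through i4g1 alone, is described without a test. RBCS1A, the main small subunit gene, had 9478 and 8678 normalised counts in ar21 and 11862 and 11474 in i4g1, against 4800.3 and 5726.5 in WT. Its libraries stood in the order WT, ar21, i4g1 without overlap. It rose in ar21 (log2 fold change 0.79 ± 0.16, limma adjusted p = 0.00739) and in i4g1 (1.15 ± 0.16, 0.000529), and ar21 and i4g1 did not differ by test (-0.36 ± 0.16, 0.549). The ar21 call was lost without ar21 1 (0.127), ar21 2 (0.0623) or WT 1 (0.0892).

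The tandem copies stood highest in the i4g1 libraries. RBCS1B had 14.1 and 11.7 normalised counts in ar21 and 82.2 and 296 in i4g1, against 23.2 and 30.8 in WT. RBCS3B had 54.3 and 42.5 in ar21 and 134 and 267 in i4g1, against 37.8 and 33.6 in WT. RBCS2B had 7.03 and 5.12 in ar21 and 32.3 and 64.7 in i4g1, against 3.66 and 8.40 in WT. In each of the 3 copies i4g1 2 was highest and i4g1 1 next, and the ar21 libraries were below both WT libraries in RBCS1B, above them in RBCS3B and between them in RBCS2B.

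In i4g1 against WT the log2 fold changes were 2.50 ± 0.45 for RBCS1B (limma adjusted p = 0.00242) and 2.38 ± 0.28 for RBCS3B (0.000208). Without i4g1 2 that of RBCS1B was 1.58 (limma adjusted p = 0.0217). In ar21 against WT they were -1.0 (0.161) and 0.42 (0.356), and RBCS1B was called lower only without i4g1 1 (0.038), a library that enters this test through the shared spread alone. In ar21 against i4g1 RBCS1B and RBCS3B were called lower, by -3.51 ± 0.45 (0.0108) and -1.96 ± 0.28 (0.0166), where 0.167% of all tested loci were called lower and 0.115% higher (26 and 18 loci, or 16 and 19 with scaling to the nuclear total). These were the 2 members called in that comparison. The RBCS1B and RBCS3B calls were lost without ar21 1 (0.104 and 0.112), ar21 2 (0.0849 and 0.14) or i4g1 2 (0.058 and 0.172), and with edgeR on 5 libraries (0.0899 and 0.0808).

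As a share of all RBCS counts, the 3 tandem copies made up 0.789% and 0.679% in ar21 and 2.05% and 5.19% in i4g1, against 1.33% and 1.26% in WT. Counting error, as an exact 95% interval, reached at most 0.506 percentage points to either side. This ratio within a library does not depend on the scaling between libraries. RCA, Rubisco activase, followed the same order among the i4g1 libraries, with 369 and 309.6 normalised counts in ar21 and 509 and 1277 in i4g1, against 206 and 207 in WT. So did TGG2, a myrosinase gene of guard cells and myrosin cells in the list of green shoot and silique wall markers, with 6.03 and 9.52 in ar21 and 33.2 and 124 in i4g1, against 23.2 and 14.0 in WT. TGG2 passed in i4g1 against WT (log2 fold change 1.78, limma adjusted p = 0.0304) but not without i4g1 2 (0.85, 0.335) or WT 2 (0.138). It was also called lower in ar21 against i4g1 (log2 difference -2.93, limma adjusted p = 0.0441). That call was lost with scaling to the nuclear total, without a filter, and with edgeR or DESeq2. It was also lost when any library but i4g1 1 was left out, and without i4g1 2 the log2 difference was -1.99. Of the 4 tested markers of that list, the other 3 did not pass in i4g1 against WT, and the list's median log2 fold change was 0.12. The list's sum was 1252 and 1474 in i4g1, against 1597 and 1294 in WT. The part of TGG2 in the RBCS values was not tested.

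**Figure D4:**
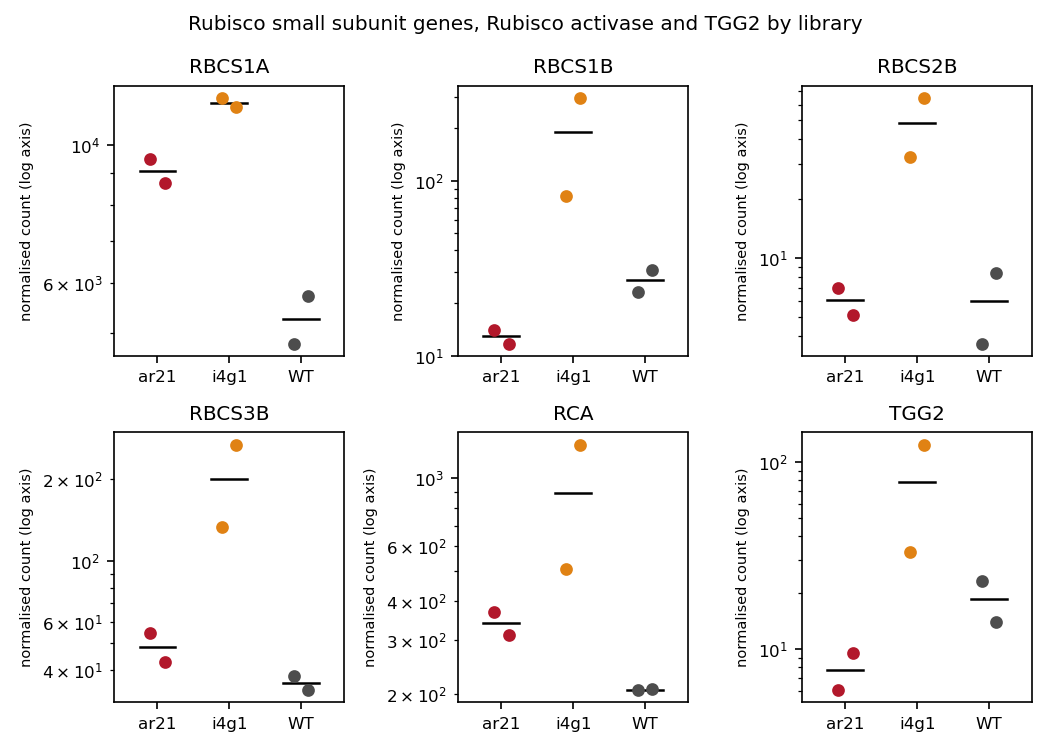
Normalised counts of the 4 RBCS genes, of RCA and of TGG2 in each library, on log axes that differ between panels. Points are libraries and bars are means of 2. RBCS1B, RBCS2B, RBCS3B, RCA and TGG2 are highest in i4g1 2, with i4g1 1 next, while the i4g1 libraries of RBCS1A lie close together.

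The proportions between copies of a family were compared within each library. LHCB2.2 reached 0.661 and 0.527 of LHCB2.1 in ar21 and 0.531 and 0.653 in i4g1, against 0.200 and 0.248 in WT. LHCB4.3 made up 11.6% and 12.1% of the LHCB4 counts in ar21 and 9.25% and 8.78% in i4g1, against 21.4% and 21.8% in WT. PSBQ-1 stood at 0.111 and 0.105 of PSBQ-2 in ar21 and 0.115 and 0.168 in i4g1, against 0.0664 and 0.0746 in WT. In each of these ratios the mutant libraries lay on one side of WT.

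PSAE-1 over PSAE-2, the pair for the stromal subunit E, was 1.13 and 1.14 in ar21 and 1.21 and 1.54 in i4g1, against 0.895 and 0.888 in WT. PSAH2 over PSAH-1 was 0.647 and 0.525 in ar21 and 0.4003 and 0.553 in i4g1, against 0.403 and 0.373 in WT, so that i4g1 overlapped with WT. ELIP1 over ELIP2 was 0.471 and 0.532 in ar21 and 0.96 and 1.96 in i4g1, against 1.36 and 1.05 in WT, where i4g1 also spanned WT. No test was run on these ratios.

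**Figure D5:**
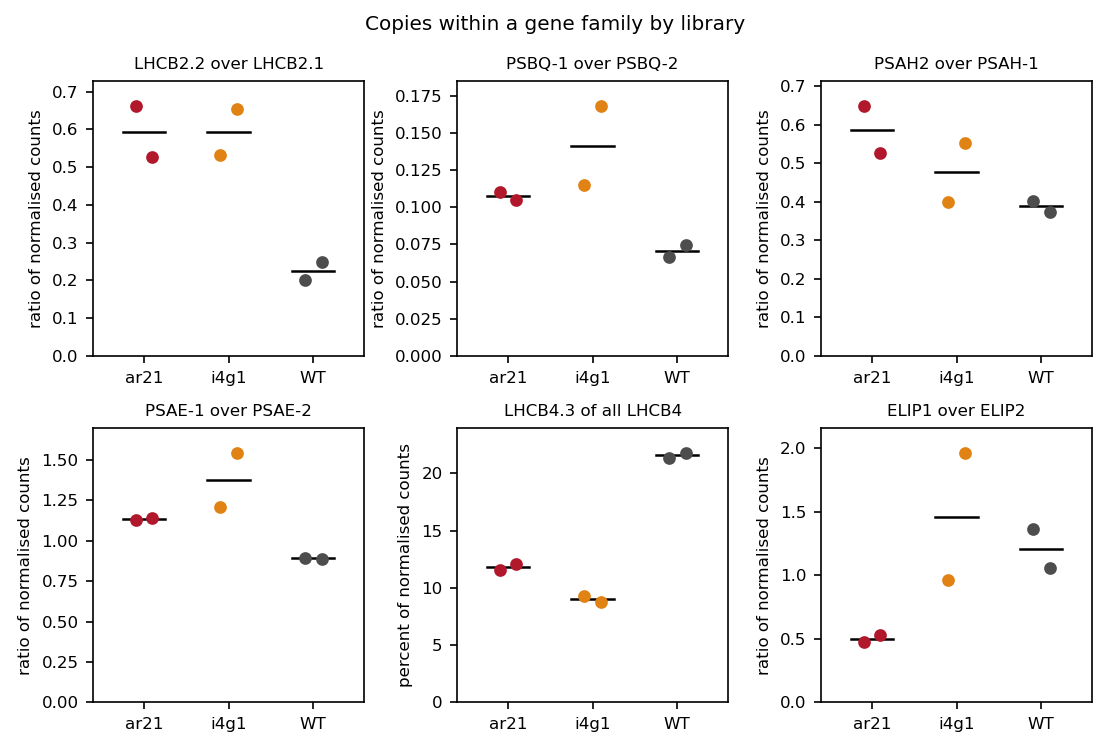
Ratio of normalised counts between copies of a family, or the percent taken by LHCB4.3 of all LHCB4 counts, in each library. Points are libraries and bars are means of 2. The ar21 and i4g1 points lie above WT for LHCB2, PSBQ and PSAE and below WT for LHCB4.3.

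Levels per kilobase of annotated exon let members be compared with each other. RBCS1A stood at 7159 normalised counts per kilobase in ar21 and 9202 in i4g1, against 4151 in WT, and LHB1B2 at 7438 in ar21 and 8469.7 in i4g1, against 3371 in WT. On these mean levels LHB1B2 was above RBCS1A in ar21 and below it in i4g1 and in WT. PSBR stood at 2627 in ar21 and 2571 in i4g1, against 1265 in WT, and PSAG at 2477 in ar21 and 2881 in i4g1, against 1036 in WT, so that PSAG was the higher of these in i4g1. Core photosystem I subunits ranged from 306 to 2477 per kilobase in ar21 and 337 to 2881 in i4g1, against 114 to 1036 in WT. The PsbP-family proteins outside the core stayed between 14.8 and 104 per kilobase in ar21 and 15.4 and 105 in i4g1, against 5.63 to 89.4 in WT.

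Not every member could be measured. Of the 75 rows 12 were listed at 0 in every library, which is 16.0% of the members' rows and 31.2% of all rows of the table. These include every row of CAB1, CAB3, LHB1B1, LHCB6, LHCA3, AT1G51400 and AT4G37230. Another 5 rows, of PSAD-2, LHCA6, AT5G28450, PSBP-2 and PPD2, were below the filter. PSAD-2, a copy of the photosystem I ferredoxin-docking subunit, reached at most 2.8 normalised counts, while PSAD-1 had 864 and 749.5 in ar21 and 778 and 839 in i4g1, against 361 and 423 in WT. Of the member genes, 28 overlap with another annotated gene, most on the other strand, LHB1B2, LHCA4, PSAG and PSAH2 among them. The library kit named in the labels does not mark strand in its usual protocol, and the sources used here do not say how reads of overlapping genes were counted. Values of these genes carry that uncertainty.

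Genes of the same pathway outside the set were counted from lists. Each list count is to be read beside the shares of all tested loci. These were 8.76% higher and 6.03% lower in ar21, and 12.5% higher and 9.86% lower in i4g1. Of 14 tested genes of electron transport and ATP synthase, 9 rose in ar21 and 9 in i4g1, and 0 were called lower by limma as scaled here, edgeR or DESeq2. With limma's p left unadjusted, 0 were lower in ar21 and 1 in i4g1. That gene, PGRL1A, was called lower in i4g1 by limma with scaling to the nuclear total (log2 fold change -0.47, adjusted p = 0.0471) or with the replicate number as a block (0.0444). PETE1, the minor plastocyanin gene, had 198 and 159 normalised counts in ar21 and 171 and 184 in i4g1, against 29.3 and 72.8 in WT. The WT libraries were far apart, and the log2 fold change of 1.92 in each line was 1.27 without WT 1. ATPD, the delta subunit of ATP synthase, rose by 1.49 in ar21 and 1.48 in i4g1 on the log2 scale. The cyclic flow genes PGR5, PGRL1A and PGRL1B did not pass in either line. Without ar21 1 the count in ar21 was 6.

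Of 19 tested Calvin cycle genes, 11 rose and 1 fell in ar21 and 16 rose and 1 fell in i4g1. The gene that fell was TKL2, a transketolase, with log2 fold changes of -0.46 in ar21 and -0.41 in i4g1, a call lost in both lines when any single WT or ar21 library was left out (limma adjusted p from 0.0689 to 0.29) and in i4g1 also without i4g1 2 (0.206). HCEF1, the plastid fructose bisphosphatase, had 162 and 125 normalised counts in ar21 and 172 and 319.8 in i4g1, against 45.1 and 64.4 in WT. It rose by 1.38 in ar21, a call lost without ar21 1 (limma adjusted p = 0.0806), and by 2.1 in i4g1. FBA2, a plastid aldolase, rose by 1.123 in ar21 and 1.47 in i4g1, and RCA by 1.96 in i4g1 or by 1.30 without i4g1 2. In ar21 RCA did not pass (log2 fold change 0.71, limma adjusted p = 0.134), although both ar21 libraries stood above both WT libraries. The ar21 count was 4 without ar21 1, 6 without ar21 2 and 7 without WT 1.

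Of 21 tested genes for antenna targeting, assembly and repair, 6 rose and 1 fell in ar21 and 8 rose and 2 fell in i4g1. CPSRP43, the chaperone that carries antenna proteins to the thylakoid, had 115 and 124 normalised counts in ar21 and 119 and 125 in i4g1, against 37.8 and 39.2 in WT. The mutant values lay close together, about 3-fold above WT, with a log2 fold change of 1.60 in ar21 and 1.64 in i4g1. BSD2, a Rubisco assembly chaperone, rose by 1.17 in ar21, a call lost without ar21 1 (limma adjusted p = 0.189), and by 1.47 in i4g1. The repair protease FTSH5 fell in both lines, by -0.42 on the log2 scale in each, and STN7, the state transition kinase, fell in i4g1 by -0.76. The FTSH5 call was lost in both lines when any single WT or ar21 library was left out (limma adjusted p from 0.057 to 0.246) and in i4g1 also without i4g1 1 (0.195), and that of STN7 without WT 1 (0.118) or i4g1 1 (0.21). The ar21 count of genes that rose was 2 without ar21 1 and 3 without ar21 2.

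Among 11 tested regulators of these genes, 2 rose and 1 fell in ar21 and 4 rose and 2 fell in i4g1. Over all tested loci 8.76% rose and 6.03% fell in ar21, and 12.5% rose and 9.86% fell in i4g1. SIG6, a plastid sigma factor, had 43.2 and 41.7 normalised counts in ar21 and 42.8 and 68.1 in i4g1, against 13.4 and 25.2 in WT. It rose by 1.16 in ar21 and 1.5 in i4g1 on the log2 scale. The ar21 call was lost without ar21 1 (limma adjusted p = 0.21), ar21 2 (0.158) or WT 1 (0.142, log2 fold change 0.73), and the i4g1 call without i4g1 2 (0.0763). The factors GLK1 and GLK2, which drive antenna gene transcription, are given apart. GLK1 had 22.1 and 14.6 in ar21 and 20.1 and 43.4 in i4g1, against 12.2 and 8.40 in WT. It was called higher in i4g1 (log2 fold change 1.46), a call lost without i4g1 2 (0.92, limma adjusted p = 0.277), WT 2 (0.106) or ar21 1 (0.0545). GLK2 had 36.2 and 33.7 in ar21 and 34.1 and 29.5 in i4g1, against 51.2 and 92.4 in WT. It was called lower in both lines (log2 fold change -0.96 and -1.09), and both calls were lost without WT 2 (-0.54 and -0.67, limma adjusted p = 0.235 and 0.117) or without either library of the line itself (0.0508 to 0.203). GUN4, an activator of chlorophyll synthesis, rose by 0.80 in ar21 and 0.78 in i4g1. Its calls were lost without WT 1 (limma adjusted p = 0.0802 in ar21 and 0.0701 in i4g1) or without either library of the line itself (0.0636 to 0.178). HY5, a light-signalling factor, fell in i4g1 (-0.97), a call lost without WT 1 (0.0558) or i4g1 2 (0.129), and SIG2 rose there (0.70), a call lost without i4g1 2, WT 2, ar21 1 or ar21 2 (0.0622 to 0.266). Of the regulators 0 rose and 0 fell in ar21 without ar21 1 or ar21 2, and 0 rose and 0 fell in i4g1 without i4g1 2. Without WT 1 neither SIG6 nor GUN4 passed in ar21, and PIF1, a repressor of chlorophyll synthesis genes in the dark, did (log2 fold change 1.93, limma adjusted p = 0.00988). Of the 4 that rose in i4g1, 2 were left without WT 2 or ar21 1.

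Markers of other tissues were read beside these values. Of 10 green shoot and silique wall markers 4 passed the filter. TGG1, another myrosinase gene, fell in ar21 (log2 fold change -0.58), a call lost without ar21 1 (limma adjusted p = 0.112), ar21 2 (0.0934) or WT 1 (0.0759). TGG2 rose in i4g1 as given above, and MYB60 and ALC did not pass. FUL, FAMA, KAT1 and VSP1 had at most 6.12 normalised counts in any library, VSP2 at most 12.2, and IND was listed at 0. The summed level of this list was 976 to 1020 in ar21 and 1252 to 1474 in i4g1, against 1294 to 1597 in WT. The part of such tissue in the values of the members was not tested. In ar21 the list's sum was below WT in both libraries.

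Of the seed tissues, embryo and reserve markers OLEO1 and OLEO2, oil body proteins, had 21414 to 131120 normalised counts in all libraries, and 0 of 5 tested genes of this list were called by limma in either line (with p unadjusted, 0 in ar21 and 1 lower in i4g1), and 0 by edgeR. DESeq2 called 0 in ar21 and 1 lower, OLEO2, in i4g1 (adjusted p = 0.0357). In i4g1 limma also called OLEO2 lower with scaling to the nuclear total (adjusted p = 0.039) or without i4g1 1 (0.0119), and CRA1, a storage protein gene, lower without WT 1 (0.0468). CRU3 and SESA1, storage protein genes, were listed at or near 0 in all libraries, with at most 3.66. Whether such values reflect their expression was not tested. Of 4 tested endosperm markers MYB118 rose in both lines, by 0.80 in ar21 and 0.71 in i4g1, and of 4 tested seed coat markers MUM2 did, by 2.70 and 2.32. At an unadjusted p under 0.05 in limma, 3 of the 4 endosperm markers were higher in both lines. The share of all tested loci at that threshold was not counted, so whether this is unusual cannot be said. ZOU, an endosperm transcription factor, had 34.2 and 21.2 normalised counts in ar21 and 31.5 and 19.96 in i4g1, against 9.75 and 14.0 in WT (log2 fold change 1.14 and 1.04, limma adjusted p = 0.0683 and 0.0732). ALE1, a protease gene expressed in endosperm, had 22.1 and 24.2 in ar21 and 20.1 and 24.7 in i4g1, against 6.09 and 14.0 in WT. It did not pass (log2 fold change 1.22 and 1.18, limma adjusted p = 0.0706 and 0.0631) but did without WT 2 (0.0149 in ar21 and 0.0127 in i4g1). The MYB118 calls were lost without either library of ar21 (limma adjusted p up to 0.094) and without WT 1 or i4g1 1 in i4g1 (0.0576 and 0.0705). The summed level was 82257 to 107249 in ar21 and 81672 to 104749 in i4g1, against 81394 to 101520 in WT, for the endosperm list, and EPR1 alone gave 82064 of the 82257 in ar21 1. The median log2 fold change of the endosperm list was 0.97 in ar21 and 0.87 in i4g1. Its part in the values of the members was not tested. For the seed coat list it was 4452 to 4714 in ar21 and 3889.7 to 4158 in i4g1, against 4651 to 4669.9 in WT, and for the embryo list 104342 to 108291 in ar21 and 111137 to 164381 in i4g1, against 132578 to 139341 in WT.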

How the data were processed

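RNA of 6 seed samples, 2 for each of ar21, i4g1 and WT, was deposited as 1 table of normalised counts per locus. Per the submitters' processing notes, STAR 2.4.0j, StringTie 1.0.3, HTSeq 0.6.0, DESeq2 1.12.4 and the TAIR10 build were used, without a statement of the role or parameters of each. The deposited values are a signal, gene counts that the authors divided by a size factor of each library. In each library 100% of the values were whole multiples of the smallest step within 0.001, so dividing by the step gave whole reads. The count tests used 5 libraries. They left out ar21 1 because its step, 1.00476, was near 1, although its values were whole multiples too. These tests thus had 1 ar21 library.

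Values were analysed as log2(value + 1), so fold changes of low genes are understated, for loci with a mean of at least 10 (15591 loci). limma 3.58.1 in R 4.3.3 fitted the 3 lines together, with its moderated test, a shared estimate of the spread and Benjamini-Hochberg adjustment over all loci of a comparison at 0.05. The fit was tested on simulated data for ar21 against WT (15581 loci). It recovered 52.7% of 93 loci changed 2-fold and 98.0% of 98 loci changed 4-fold, with 11 false calls among 156. The simulation gave all loci the same spread beyond counting error, not estimated from these data, and no difference in library composition. Its rates may therefore not hold for these libraries. Alternatives were other pseudocounts, filters and scalings, each library left out, the replicate number as a block, and edgeR 4.0.16 and DESeq2 1.42.0 on recovered reads. A library left alone in its line by leaving out the other was assumed to vary like the other lines.

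The members, the 8 gene lists and the tests were chosen with earlier results of these data known, so no count is independent evidence. Genes were named by rule, as the 3 highest levels per kilobase and the 2 largest passing changes of each group and line, with every member called lower or called between ar21 and i4g1 and the 2 largest changes of each pathway list. Others were chosen after their values were seen. Positions and sequences were read from the RefSeq TAIR10.1 genome and annotation, matched by locus, with Biopython 1.88. The samples are biological replicates per the labels, and with 2 to a line the spread is known poorly.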

Additional observations from a re-analysis of the deposited data

Results flagged for a closer look

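RBCS1B and RBCS3B stood apart because the mutant lines differed from each other by a direct test, in a comparison where most members did not. The log2 difference of ar21 from i4g1 was -3.5062 for RBCS1B, with 14.1 and 11.7 normalised counts in ar21, against 82.2 and 296 in i4g1. For RBCS3B it was -1.956, with 54.3 and 42.5 in ar21, against 134 and 267 in i4g1. Both calls rest on 2 libraries a line and were lost when an ar21 library or i4g1 2 was left out.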

How the results depend on the processing

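Over all settings 29 to 39 members rose in ar21 and 36 to 46 in i4g1 and no named member called in either the reported fit or an alternative changed sign between them. In ar21 against WT, edgeR called 416 loci higher and 267 lower, and DESeq2 235 and 130. Leaving out 1 library gave 338 to 1373 higher and 186 to 1015 lower loci, and 1 to 3 lower members. In i4g1 against WT, DESeq2 called 741 loci higher and 544 lower, and with nuclear scaling 1439 were higher and 1825 lower, where 1952 and 1537 were reported, and leaving out 1 library gave 1129 to 1918 higher and 923 to 1275 lower. The 1 member lower in i4g1 became 0 without a filter or with DESeq2, 2 with a mean of at least 50, with the replicate block or with nuclear scaling, and 0 to 1 with 1 library left out. In ar21 against i4g1, where 18 loci were higher and 26 lower, the counts were 0 and 2 without a filter, 0 and 2 with edgeR, and 4 and 3 with DESeq2. Nuclear scaling gave 16 lower and 19 higher loci and moved the members' median log2 difference to 0.04, where -0.02 was reported, and leaving out 1 library 0 to 89 higher and 1 to 70 lower. The 2 members lower in that comparison became 0 without a filter or with edgeR, 1 with DESeq2, 4 with the block, and 0 to 3 with 1 library left out. The cause of these shifts was not tested, but edgeR and DESeq2 used 5 libraries and had 1 ar21 library. PPD1 and RBCS2B fell below the filter at 50.

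The reported fit did not pair the samples by replicate number. With 2 libraries a line, the correlations below cannot show whether a pairing exists. Deviations of same-numbered libraries correlated at 0.125 for ar21 and i4g1, -0.0803 for ar21 and WT and -0.0277 for i4g1 and WT. With the replicate block 38 members rose in ar21 and 45 in i4g1. In ar21 against i4g1 49 loci were then higher, where 18 were reported. The 2 libraries a line limit what low members can show. So does depth, which outside the 18S locus was lowest in WT, with 1344947 reads in WT 2.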
